A study of Mus musculus with 20 samples.

Results

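Retained intron transcripts are annotated RNAs in which sequence that is spliced out of a coding transcript of the same gene stays in an exon. They were taken from the transcript types of GENCODE M21 on mm10: each Ensembl transcript of type retained_intron counted as a member, whatever its level. This gave 20115 transcripts of 8720 genes, out of 109913 annotated transcripts and 126719 transcript models in all. Each was above 0 in at least 1 library, with a median mean level of 0.182 FPKM (reads per kilobase of transcript, scaled to library size). The study profiled abdominal aortas of C57BL/6 mice, and its title places Rab22a, a small GTPase of endosomes, in the recycling of the angiotensin II receptor AT1R and in hypertension. The 4 groups of 5 mice were wild type (WT) with saline, WT with angiotensin II (AngII, 500 ng/kg/min), Rab22a knockout (KO) with saline and KO with AngII, each treated for 14 days. Each library came from rRNA-depleted total RNA, and the labels do not say how the knockout was made, in which cells, or whether the KO and WT mice were littermates.

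Splicing removes introns while the RNA is still being made, and an intron that stays can hold the RNA in the nucleus until it is spliced or degraded, or expose it to nonsense-mediated decay once it reaches the cytoplasm. Genes of splicing factors are well known for regulated retention, in which an intron left in the RNA lowers the output of the protein. Total RNA keeps nuclear and unfinished RNA, so an annotated retained intron transcript can also collect reads of RNA that is about to be spliced.

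The annotation type is broader than a whole intron left inside an exon. Of the 20115 transcripts, 19499 (96.9%) read through at least 1 splice site of a coding transcript of their gene, but only 5922 (29.4%) hold a complete coding intron. These complete introns were short: 8016 of them had a median of 279 bases, against 1483 bases for the 123398 other coding introns of the same genes. GT and AG bounded 98.2% of them. The donor began with GTGAG in 29.5% and with GTAAG in 21.1%. The sequences below are introns of at most 300 bases, taken from the GENCODE M21 transcripts and written on the strand of the gene. Capitals mark the first 6 and the last 3 bases, which belong to the donor and acceptor sites. The first set holds introns of 4 abundant named transcripts, shown because their level was among the highest.
Slc1a5 intron, chr7:16795953-16796023, + strand: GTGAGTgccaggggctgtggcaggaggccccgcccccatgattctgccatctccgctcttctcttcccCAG
Rps16 intron, chr7:28352274-28352362, + strand: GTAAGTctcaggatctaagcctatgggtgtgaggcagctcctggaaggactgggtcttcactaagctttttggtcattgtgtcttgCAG
Rpl7 intron, chr1:16103335-16103509, - strand: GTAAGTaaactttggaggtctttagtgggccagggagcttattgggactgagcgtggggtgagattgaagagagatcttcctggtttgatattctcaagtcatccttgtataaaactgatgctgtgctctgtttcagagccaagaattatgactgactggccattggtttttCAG
Gabarap intron, chr11:69992444-69992581, + strand: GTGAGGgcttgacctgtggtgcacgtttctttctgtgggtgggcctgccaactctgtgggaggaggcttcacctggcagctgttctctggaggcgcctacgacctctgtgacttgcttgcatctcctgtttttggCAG

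The second set was chosen after the values were seen, and shows introns of transcripts that were lower in KO aortas and whose values are given further on. Clk1, Hnrnpa2b1 and Cstf3 act in RNA processing, and Rpp21, Spcs1 and Atraid are 3 of the 4 genes called under each treatment. They do not share a base composition: GC content was 27.6% in the Clk1 intron and 71.6% in the Rpp21 intron.
Clk1 intron 6 of 12, chr1:58417180-58417266, - strand: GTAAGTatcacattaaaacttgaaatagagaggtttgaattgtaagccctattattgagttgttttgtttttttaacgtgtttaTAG
Rpp21 intron 2 of 4, chr17:36257525-36257605, - strand: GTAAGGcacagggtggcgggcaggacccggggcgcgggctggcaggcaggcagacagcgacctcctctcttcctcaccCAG
Spcs1 intron 2 of 3, chr14:31000765-31000843, - strand: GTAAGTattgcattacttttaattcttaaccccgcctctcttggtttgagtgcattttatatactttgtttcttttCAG
Atraid intron 3 of 4, chr5:31052269-31052461, + strand: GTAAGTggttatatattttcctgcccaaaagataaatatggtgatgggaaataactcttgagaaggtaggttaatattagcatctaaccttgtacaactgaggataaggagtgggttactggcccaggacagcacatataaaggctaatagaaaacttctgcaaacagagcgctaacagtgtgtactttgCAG
Hnrnpa2b1 intron 9 of 9, chr6:51463255-51463410, - strand: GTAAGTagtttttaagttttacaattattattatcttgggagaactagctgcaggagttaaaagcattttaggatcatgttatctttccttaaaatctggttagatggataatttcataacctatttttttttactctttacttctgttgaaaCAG
Cstf3 intron 2 of 20, chr2:104608973-104609090, + strand: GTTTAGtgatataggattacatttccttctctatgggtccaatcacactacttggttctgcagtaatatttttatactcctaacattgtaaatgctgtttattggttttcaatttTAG
The fourth gene of that kind, Cox5b, keeps its first intron of 521 bases (chr1:36691690-36692210, + strand), of which the 10 exon and 20 intron bases around the donor are shown, with the first 6 intron bases in capitals.
Cox5b intron 1 of 3, donor: gcttctggagGTACGTgaccagctgggcgg

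Rab22a itself has no retained intron transcript in the annotation. Its coding transcript ENSMUST00000029024 lay between 1.87 and 8.62 FPKM in WT libraries and between 0 and 0.00563 FPKM in KO libraries, as labelled. The sum over all Rab22a transcripts was not lower in KO (7.51 to 11.1 FPKM) than in WT (2.65 to 10.4 FPKM), and WT saline replicate 4 and WT AngII replicate 2 had the lowest sums. The values imply 68747800 to 77392400 reads per library, of which 1383780 to 2072410 lay in retained intron transcripts. WT libraries held 86843 ± 3148 models above 0 and KO libraries 79797 ± 2742 (SD, n = 10). Defining markers of smooth muscle, endothelium and fibroblasts were present in each library. Markers of B and plasma cells (9 of 9 found) had a mean log2(FPKM + 1) of 4.78 in WT, ranging from 3.81 to 5.49, and of 3.05 in KO, ranging from 0.798 to 5.48. T and NK cell markers (8 of 8 found) had 4.15 in WT, ranging from 2.29 to 4.85, and 2.77 in KO, ranging from 0.754 to 5.68. Skeletal muscle markers (13 of 13 found) ranged from 0.921 to 8.82 in WT and from 0.682 to 8.12 in KO. The part of these cells in the genotype results was not tested. In bulk tissue, fewer cells of a type and less RNA per cell cannot be told apart.

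Retained intron transcripts made up a slightly smaller part of the annotated FPKM in KO aortas, but the groups overlapped. Their share was 3.42% ± 0.395 in WT saline, 3.45% ± 0.352 in WT AngII, 3.04% ± 0.448 in KO saline and 3.08% ± 0.337 in KO AngII (SD, n = 5 each). WT libraries ranged from 2.90% to 4.03% and KO libraries from 2.65% to 3.81%. The number of retained intron transcripts at 1 FPKM or more was 2368 ± 360, 2385 ± 295, 1937 ± 430 and 1981 ± 243 in the same order. WT counts ran from 1888 to 2830 and KO counts from 1602 to 2635, so these overlapped too. Among 7190 genes with a retained intron transcript and other expressed transcripts, the median share of the gene's FPKM was 6.03% ± 0.576, 5.94% ± 1.12, 5.08% ± 0.507 and 5.49% ± 0.564. Transcripts annotated for nonsense-mediated decay held 1.08% ± 0.0919 of annotated FPKM in WT and 1.01% ± 0.137 in KO (n = 10 each). The lower means were not particular to retained intron transcripts. Their median share of the gene was 5.98% in WT and 5.28% in KO. It was 1.49% and 1.30% for processed transcripts and 1.81% and 1.62% for nonsense-mediated decay. The numbers at 1 FPKM or more were 872 and 791 for processed transcripts and 750 and 690 for nonsense-mediated decay. Protein coding transcripts held 81.2% of annotated FPKM in WT and 79.6% in KO.

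**Figure D1:**
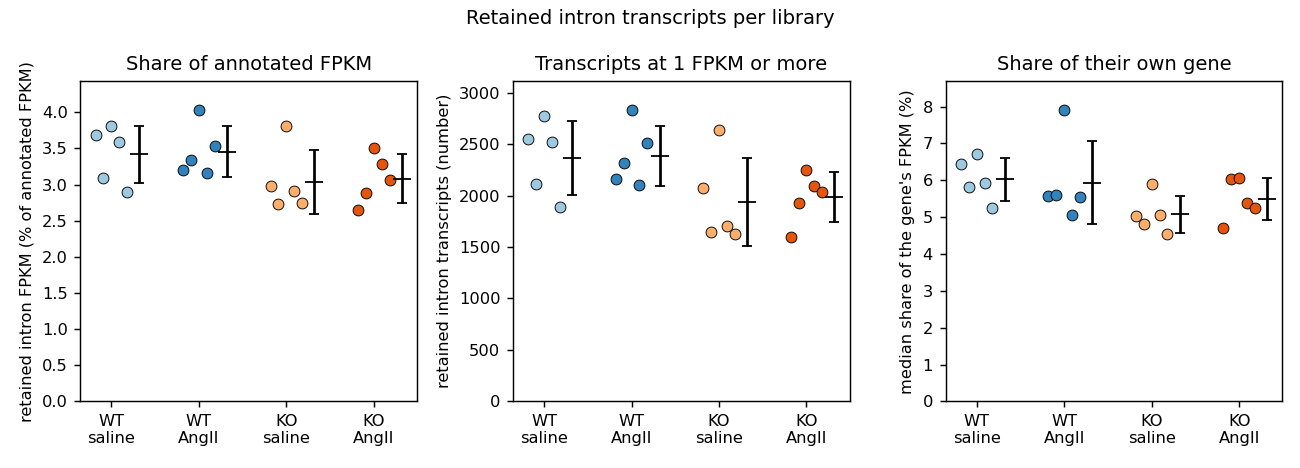
Retained intron transcripts in each of the 20 libraries: their percent of annotated FPKM, their number at 1 FPKM or more, and the median percent of their gene's FPKM, with 1 point per library and the group mean with its SD as a bar. KO libraries sit lower on average in each panel, and KO saline replicate 3 and WT AngII replicate 3 stand above the rest of their groups.

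A retained intron transcript was tested where it reached 1 FPKM in at least 5 of the 20 libraries, which 2981 of the 20115 (14.8%) of 2134 genes did. Values were compared as log2(FPKM + 1) with limma over all 34149 models that passed, and a transcript is called where the Benjamini-Hochberg adjusted p lies under 0.05. Differences are KO minus WT on this scale, which understates the change of low transcripts. Over both treatments, 143 retained intron transcripts of 124 genes were lower in KO aortas and 5 were higher. Of all models tested, 2.13% were called, 1.8% lower and 0.331% higher, whereas 4.80% of the tested retained intron transcripts were lower. The share called lower was 1.29% of 1010 transcripts annotated for nonsense-mediated decay, 2.98% of 1142 processed transcripts and 1.24% of 18645 protein coding transcripts. The median difference was -0.18 over the retained intron transcripts and -0.07 over all models, and 74.4% of the former and 58.0% of the other models were negative. Over all 20115, tested or not, 13292 (66.1%) had a lower mean in KO, against 63.9% of the 89798 other annotated transcripts.

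**Figure D2:**
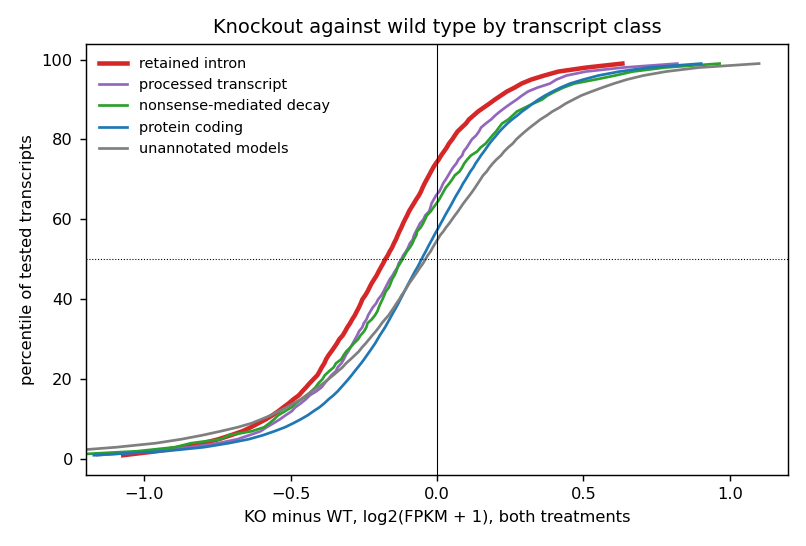
Percentiles of the KO minus WT difference in log2(FPKM + 1) over both treatments, for the tested transcripts of each annotation class; a curve further left means lower values in KO. The curve of retained intron transcripts crosses the median line at -0.18, left of the other classes, and the classes overlap over most of their range.

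The filter can favour the group in which a transcript is high: 632 of the 2981 passed through WT libraries alone, 174 through KO libraries alone and 1658 in each genotype. Of the 143 lower transcripts, 65 passed through WT libraries alone. Among them are Spcs1 ENSMUST00000226290, Rpp21 ENSMUST00000174824 and Gas5 ENSMUST00000161461, described below. Among those 1658, 78 were lower and 2 higher, which is 4.70% lower, against 330 lower (1.49%) of 22189 other models that passed in each genotype. With a mean of at least 1 FPKM, 119 of 2183 (5.45%) were lower, against 1.59% of 26642 others. Shorter transcripts were called lower more often in each class, with the highest share at 501 to 1000 bases. There 7.01% of retained intron and 4.33% of other annotated transcripts were lower, and above 2000 bases 2.70% and 0.432%. The median difference did not follow this at 1 to 500 bases, with -0.22 for retained intron and -0.27 for other annotated transcripts. In each longer class retained intron transcripts had the lower median, with -0.12 against 0.01 above 2000 bases. When each library's trend on length and GC content was removed, a step added after seeing the data, 59 were lower and 11 higher, where 0.899% of the 25350 models tested were called, and the median difference became -0.03 over retained intron transcripts and 0.01 over all models. Without the pair of WT libraries with low Rab22a sums, also chosen after seeing the data, 51 were lower and 1 higher, where 0.87% of the 34149 models were called. All 143 stayed negative in both settings, which tests nothing, as they were chosen for a low value in the same libraries. Leaving out KO saline replicate 3 gave 214 calls in all, and leaving out KO saline replicate 5 gave 88; WT saline replicate 1 (98), WT AngII replicate 2 (95), KO AngII replicate 1 (94) and KO AngII replicate 3 (97) also moved the 148 by over 1.5 times.

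**Figure D3:**
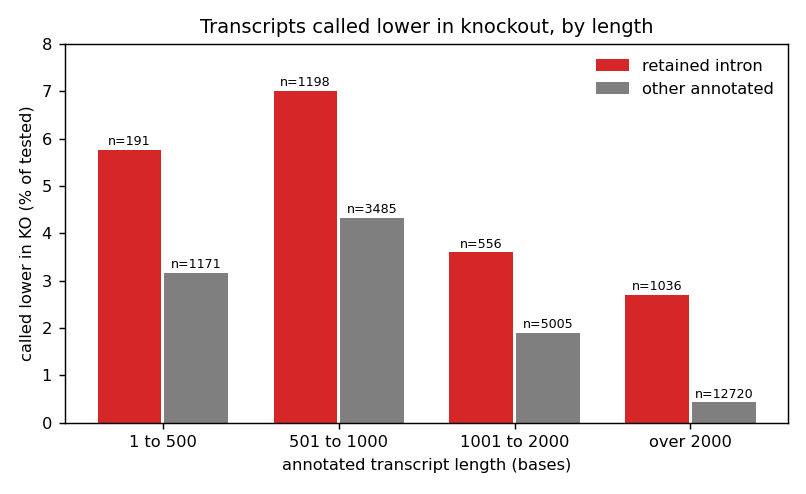
Percent of tested transcripts called lower in KO over both treatments, by annotated length in bases, with the number tested above each bar. Retained intron transcripts exceed other annotated transcripts in each length class, from 7.01% against 4.33% at 501 to 1000 bases to 2.70% against 0.432% above 2000 bases.

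In 18 of the 2981 tested retained intron transcripts every WT library lay above every KO library, and in 0 was the reverse seen. The same separation occurred in 102 of all 34149 models (0.299%) and in 84 of the 31168 others (0.27%). The 18 came from Tmem258, Clk1, Eif4a2, Slc35b1, Rps21, Psmb6, Srsf3, Cox20, Gas5, Mocs2, Scnm1, Rpp21, Cox5b, Fmo2, Atraid, Irf3, Spcs1 and Eny2. For transcripts that passed through WT libraries alone, the filter itself favours this direction. Rpp21 was 1 of these. So were Rps21, Gas5, Spcs1 and Eny2, whose highest KO libraries stood at 0.738, 0.857, 0.884 and 0.706 FPKM. How all 18 passed is not given here. Several margins were thin: the lowest WT and highest KO library of Srsf3 were both at 1.17 FPKM and those of Cox20 both at 4.75 FPKM.

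Cox5b, a subunit of cytochrome c oxidase in the mitochondrial respiratory chain, gave the smallest adjusted p of all retained intron transcripts. ENSMUST00000191790 (chr1:36691628-36692550, + strand, 757 bases) stood at 12.6, 9.77, 10.7, 8.24 and 7.42 FPKM in WT saline and at 8.74, 10.1, 11.3, 8.25 and 7.16 FPKM in WT AngII. It stood at 3.17, 3.07, 4.68, 4.28 and 2.12 FPKM in KO saline and at 2.69, 5.41, 3.76, 3.73 and 3.67 FPKM in KO AngII. The genotypes did not overlap under either treatment. The difference was -1.28 ± 0.192 (SE) under saline (adjusted p = 0.00341), -1.07 ± 0.192 under AngII (adjusted p = 0.0177) and -1.17 ± 0.136 over both (adjusted p = 0.000111). The other Cox5b transcripts were lower on average too, from 250 ± 81.9 to 148 ± 52.6 FPKM under saline (SD, n = 5). The transcript's share of its gene went from 4.08% ± 1.44 to 2.61% ± 1.57, and the ratio to the other transcripts was not called.

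Rpp21 encodes a protein subunit of RNase P, which trims the 5′ ends of transfer RNAs. Its retained intron transcript ENSMUST00000174824 (chr17:36255944-36257855, - strand), which holds the GC-rich intron shown above, stood at 1.82, 2.06, 2.19, 2.40 and 2.32 FPKM in WT saline and at 2.03, 1.88, 1.66, 2.52 and 2.33 FPKM in WT AngII. In KO it stood at 0.759, 0.980, 1.12, 0.509 and 0.432 FPKM with saline and at 0.602, 1.06, 0.490, 0.898 and 0.633 FPKM with AngII. No KO library reached the lowest WT library. The difference over both treatments was -0.84 ± 0.102 (adjusted p = 0.000148), on a mean of only 50 reads per library. A second retained intron transcript of Rpp21 was also lower, by a log2 difference of -0.80. The other Rpp21 transcripts fell alongside, from 18.7 ± 0.749 to 12.0 ± 1.88 FPKM under saline, as means.

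Spcs1 encodes a small subunit of the signal peptidase complex of the endoplasmic reticulum. ENSMUST00000226290 (chr14:30999828-31001369, - strand) stood at 1.40, 1.31, 1.57, 1.67 and 1.61 FPKM in WT saline and at 1.58, 1.48, 1.64, 1.89 and 1.90 FPKM in WT AngII. In KO it stood at 0.726, 0.283, 0.773, 0.444 and 0.344 FPKM with saline and at 0.622, 0.600, 0.884, 0.639 and 0.420 FPKM with AngII. Again the genotypes were apart in each treatment, with a difference over both of -0.73 ± 0.0886 (adjusted p = 0.000148). Like that of Rpp21, this transcript passed the filter through WT libraries alone. Here the rest of the gene moved little: the other transcripts had 40.5 ± 13.1 FPKM in WT saline and 35.2 ± 5.41 FPKM in KO saline. The share of the gene was 3.86% ± 1.12 and 1.44% ± 0.602 in these groups, but the ratio missed the threshold (adjusted p = 0.141 over both treatments).

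Atraid is a gene first described as induced by retinoic acid. ENSMUST00000201887 (chr5:31048321-31054617, + strand) stood at 3.77, 4.35, 3.75, 3.39 and 3.46 FPKM in WT saline and at 3.42, 5.94, 4.97, 4.43 and 3.43 FPKM in WT AngII. It stood at 2.001, 1.12, 2.17, 1.74 and 1.30 FPKM in KO saline and at 2.24, 2.40, 2.25, 1.82 and 2.04 FPKM in KO AngII. The highest KO library lay below the lowest WT library, and the difference over both treatments was -0.81 ± 0.112 (adjusted p = 0.000637). The other Atraid transcripts were nearly level, at 34.0 ± 6.78 FPKM in WT saline and 33.5 ± 2.71 FPKM in KO saline, and the adjusted p of the ratio was 0.069. Bases that only this Atraid transcript covers overlap an exon of Slc5a6 on the opposite strand, and the labels do not say that the libraries kept strand, so reads of the 2 genes cannot be told apart there.

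Clk1 is a kinase that phosphorylates SR proteins, a family of splicing factors, and regulated retention of its own introns is textbook knowledge. ENSMUST00000129577 (chr1:58416143-58424066, - strand) holds 3 complete coding introns. It stood at 4.14, 2.51, 5.58, 3.56 and 2.03 FPKM in WT saline and at 2.48, 2.87, 3.04, 2.51 and 3.15 FPKM in WT AngII. It stood at 1.06, 0.961, 1.90, 0.859 and 0.757 FPKM in KO saline and at 1.18, 0.884, 1.68, 1.66 and 1.26 FPKM in KO AngII. The genotypes met without overlap, with KO saline replicate 3 just under the lowest WT library. The difference was -0.90 ± 0.141 over both treatments (adjusted p = 0.00219). The whole gene was lower: the other Clk1 transcripts had 40.9 ± 9.04 FPKM in WT saline and 19.3 ± 7.20 FPKM in KO saline, and the ratio differed by 0.04 ± 0.114. A second retained intron transcript, ENSMUST00000123580, was lower by a log2 difference of -0.82 (adjusted p = 0.00244) with a ratio difference of 0.14.

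Mocs2 encodes subunits of molybdopterin synthase, which makes the molybdenum cofactor. ENSMUST00000170985 (chr13:114818270-114829006, + strand) stood at 5.81, 7.07, 7.34, 4.91 and 5.11 FPKM in WT saline and at 6.13, 6.39, 6.43, 8.45 and 5.46 FPKM in WT AngII. It stood at 2.28, 3.54, 1.93, 2.97 and 3.43 FPKM in KO saline and at 4.26, 3.74, 3.61, 2.79 and 4.23 FPKM in KO AngII. Each KO library lay below each WT library. The difference was -0.78 ± 0.117 (adjusted p = 0.00148), with other Mocs2 transcripts at 42.4 ± 4.27 FPKM in WT saline and 35.5 ± 8.84 FPKM in KO saline.

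**Figure D4:**
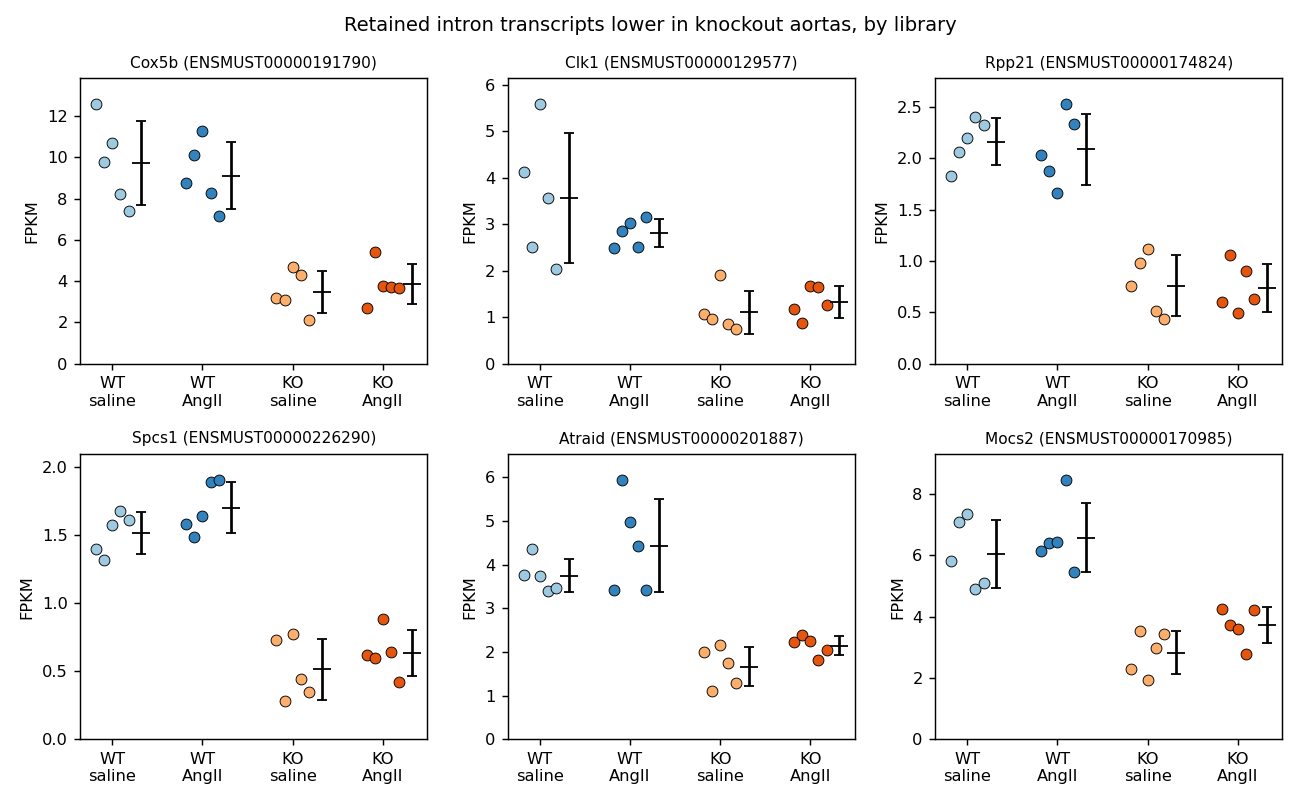
FPKM of the retained intron transcripts of Cox5b, Clk1, Rpp21, Spcs1, Atraid and Mocs2 in each of the 20 libraries, by group, with the group mean and SD as a bar and a linear axis from 0. The 10 WT libraries lie above the 10 KO libraries in each panel; the smallest gap is that of Clk1, between 1.90 and 2.03 FPKM.

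The list of splicing regulators held genes with retained intron transcripts lower in KO. Of 73 listed genes, 43 had tested members, 79 in all, and 11 of these (13.9%) were lower and 1 was higher, beside 1.8% of all models and 4.80% of all tested retained intron transcripts that were lower. The list's median difference of -0.20 was close to the -0.18 of all tested retained intron transcripts. The lower ones came from Ddx5, Clk1, Rbm39, Ccnl2, Srsf3, Hnrnpdl, Srsf5, Rbm25 and Hnrnpa2b1, and the higher one from Srrm2. On the ratio to the other transcripts of the gene, 0 of this list were called, beside 0.124% of all ratios. The calls on FPKM therefore do not show a changed share of retention in these genes. With each treatment alone, 1 of the 79 was called under saline (Clk1) and 0 under AngII, beside 0.228% and 0.548% of all models. Hnrnpa2b1 encodes an RNA-binding protein of nuclear RNA particles. Its ENSMUST00000204090, which keeps the last intron shown above, stood at 26.4, 18.4, 34.6, 22.5 and 14.8 FPKM in WT saline and at 16.04, 24.9, 26.5, 20.7 and 27.5 FPKM in WT AngII. It stood at 11.5, 10.7, 22.2, 8.99 and 10.4 FPKM in KO saline and at 7.74, 9.52, 15.9, 12.0 and 11.2 FPKM in KO AngII. KO saline replicate 3 and KO AngII replicate 3 reached into the WT range, and the difference over both treatments was -0.91 ± 0.177 (adjusted p = 0.0116). Srsf5 and Srsf3, both SR proteins, differed by -0.82 ± 0.193 and -0.43 ± 0.0999 (adjusted p = 0.0324 and 0.0301), and the Srsf5 transcript has 0 bases of its own. Rbm39, a cofactor in the choice of splice sites, differed by -0.72 ± 0.183 (adjusted p = 0.0465).

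Regulated retention is also known in Mat2a and Clk4, whose retained intron transcripts were not called. Mat2a, which makes the methyl donor S-adenosylmethionine, had a difference of 0.35 (adjusted p = 0.225). Clk4 had one of -0.55 (adjusted p = 0.0549), on a mean of 37 reads per library and 0 bases of its own. The retained intron transcripts of Ogt and Son stayed under the filter, and values of single Srsf7 transcripts are not reported here.

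Ribosomal protein genes and overlaps with small nucleolar RNAs were counted after the names were seen, with no test. Of the 143 lower transcripts, 20 (14.0%) came from ribosomal protein genes, beside 108 of the 2981 tested (3.62%). Small nucleolar RNAs are cut from introns and guide the modification of ribosomal RNA. In 9 of the 143 (6.29%), and in 33 of the 2981 (1.11%), the bases covered by no other transcript of the gene hold a small nucleolar RNA gene. Gas5, Eif4a2, Snhg5, Snhg8, Rps2 and Rpsa were among their genes. Snhg8 differed by -1.07, Snhg5 by -0.93 and Rpsa by -0.82, with adjusted p of 0.00246, 0.00223 and 0.0217. Reads of the small RNA and of the retained intron cannot be told apart in these bases. Ribosomal protein genes also have many pseudogenes with nearly the same exons, so the level of single transcripts of these genes is uncertain.

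Gas5, a host of small nucleolar RNAs with no long reading frame, had more than 1 retained intron transcript called. ENSMUST00000161461 stood at 3.10, 3.19, 3.18, 4.19 and 2.39 FPKM in WT saline and at 4.43, 2.51, 2.05, 2.56 and 5.41 FPKM in WT AngII. It stood at 1.02, 0.672, 2.17, 0.546 and 0.185 FPKM in KO saline and at 0.604, 0.889, 0.455, 0.339 and 1.31 FPKM in KO AngII. Only KO saline replicate 3 reached the WT range. The difference was -1.26 ± 0.181 (adjusted p = 0.000966), and the ratio differed by -0.16 ± 0.299. This transcript has 0 bases of its own, so its level rests on how reads of shared bases were divided among Gas5 transcripts.

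The largest decreases were those of Dda1 (-1.91 ± 0.386, adjusted p = 0.014), Mrps18b (-1.44 ± 0.337, adjusted p = 0.0319), Rcn3 (-1.41 ± 0.295, adjusted p = 0.0167), Rps14 (-1.34, adjusted p = 0.0113) and Rps18 (-1.31 ± 0.297, adjusted p = 0.0275). Dda1 belongs to a ubiquitin ligase complex, and its ENSMUST00000098645 stood at 18.3, 9.56, 14.3, 20.1 and 13.9 FPKM in WT saline and at 15.98, 10.1, 13.5, 11.5 and 11.7 FPKM in WT AngII. In KO it stood at 0.791, 6.26, 11.4, 10.4 and 0.535 FPKM with saline and at 9.12, 1.02, 1.48, 1.28 and 1.27 FPKM with AngII. This Dda1 transcript has 0 bases of its own, so its level rests on how reads of shared bases were divided. KO libraries fell into low and middling values within each treatment, and 2 of the saline ones lay in the WT range. The calls of Mrps18b and Rps18 were lost in 14 and 10 of 30 other settings, and those of Dda1 and Rps14 in 0. The smallest difference among the 143 was that of Mrpl4, at -0.37.

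Most retained intron transcripts that were lower had both lower other transcripts of the gene and a lower ratio to them. The log2 ratio of a transcript to the summed other transcripts of its gene, each with 1 FPKM added, had a median difference of -0.00 over the tested retained intron transcripts, while their genes' other transcripts had a median of -0.17. The ratio's median moved with the treatment of low values: it was -0.11 with 0.1 FPKM added (0.00 over all ratios), -0.09 with a filter at 5 FPKM (0.02 over all) and 0.02 with no filter (0.02 over all). Of the 142 lower transcripts for which it could be formed, 129 had a lower ratio, 129 had lower other transcripts and 116 had both. Their medians were -0.68 for the transcript, -0.37 for the ratio and -0.28 for the other transcripts; being chosen for a low value, these describe the 142 and test nothing. In Clk1 and Rps14 the decrease lay in the whole gene (ratio differences of 0.04 and 0.11). In Mrps18b the other transcripts differed by 0.01 and the ratio by -1.45, but this ratio was not called.

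**Figure D5:**
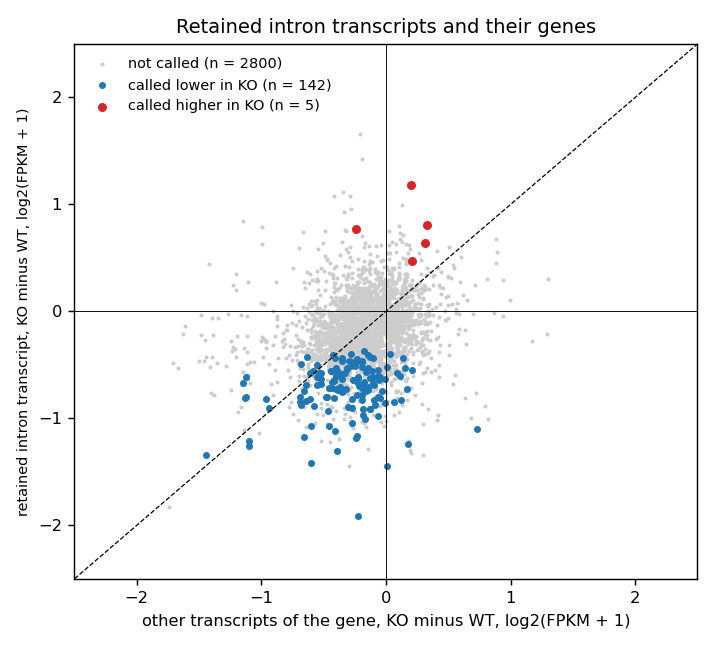
KO minus WT difference over both treatments of each tested retained intron transcript (vertical) and of the summed other transcripts of its gene (horizontal), both in log2(FPKM + 1), with called transcripts coloured. Points on the dashed line changed as much as the rest of their gene; most of the 142 blue points lie left of 0 and below the line.

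On the ratio, 5 retained intron transcripts were called over both treatments, all lower in KO, where 0.124% of all 18476 ratios tested were called, 0.0649% lower and 0.0595% higher. Under each treatment alone 0 of the 2947 retained intron ratios were called. Of all ratios 0.0216% were called under saline (0.0162% lower, 0.00541% higher) and 0.0108% under AngII (0.00541% lower, 0.00541% higher). At an unadjusted p under 0.05 there were 223 and 333 retained intron ratios, with smallest adjusted p of 0.0650 and 0.0771 by limma. The 5 called over both treatments were Id3, Dcun1d5, Cstf3, Dync1i2 and Ddx3x. Id3, an inhibitor of basic helix-loop-helix transcription factors, had a share of its gene of 15.7%, 14.4%, 21.004%, 18.3% and 11.1% in WT saline and of 15.1%, 18.5%, 18.2%, 15.2% and 21.1% in WT AngII. In KO its share was 6.29%, 9.73%, 9.14%, 7.75% and 6.65% with saline and 7.33%, 13.4%, 12.8%, 7.67% and 7.53% with AngII. Under saline the genotypes were apart, and with AngII the KO libraries stayed below the WT AngII libraries. The Id3 ratio differed by -0.91 ± 0.156 (adjusted p = 0.0309), while the other Id3 transcripts had 32.7 FPKM in WT saline and 37.2 FPKM in KO saline, as means.

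Dcun1d5, a factor in the attachment of NEDD8 to cullins, had a share of 43.2% ± 6.8 in WT saline, 39.2% ± 12 in WT AngII, 19.9% ± 4.2 in KO saline and 21.7% ± 4.6 in KO AngII (SD, n = 5), with a ratio difference of -0.95 ± 0.179 (adjusted p = 0.0432). Cstf3, part of the complex that cleaves RNA before the poly(A) tail is added, had 16.3% ± 4.4, 15.5% ± 2.7, 6.65% ± 1.8 and 7.65% ± 1.6 in the same order. Its libraries stood at 16.1, 16.7, 22.5, 15.996 and 10.01% in WT saline and at 6.65, 5.12, 9.62, 5.34 and 6.53% in KO saline. The Cstf3 groups did not overlap under saline, and the ratio difference was -0.63 ± 0.118 (adjusted p = 0.0418) on a mean of 52 reads per library. Ddx3x, an RNA helicase, had a ratio difference of -0.75 ± 0.134 (adjusted p = 0.0343), while its FPKM was not called (adjusted p = 0.0514). Dync1i2, an intermediate chain of the dynein motor, had one of -0.85 ± 0.161 (adjusted p = 0.0432). With no filter on low values 87 ratios were called, 40 lower and 47 higher, and without the pair of low-Rab22a WT libraries 0 were. The count of 5 fell to 0 also without WT AngII replicate 2, KO saline replicate 1, KO saline replicate 5 or KO AngII replicate 1 alone.

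The 5 retained intron transcripts that were higher in KO came from Ptger3, Sema5a, Eln, Srrm2 and Slc43a3. Ptger3 encodes a receptor for prostaglandin E. ENSMUST00000196682 (chr3:157566900-157607595, + strand) stood at 9.28, 11.4, 8.58, 15.4 and 8.48 FPKM in WT saline and at 9.40, 4.94, 13.9, 6.98 and 11.8 FPKM in WT AngII. It stood at 23.0, 21.9, 12.9, 29.0 and 34.8 FPKM in KO saline and at 35.5, 20.5, 28.1, 13.3 and 22.8 FPKM in KO AngII. KO saline replicate 3 and KO AngII replicate 4 lay within the WT range and the other 8 KO libraries above it. The difference was 1.18 ± 0.208 (adjusted p = 0.00579), and the share of the gene was 26.0% ± 5.77 in WT saline and 35.4% ± 6.75 in KO saline. Under AngII it was 19.2% ± 5.46 in WT and 39.0% ± 7.69 in KO, and the adjusted p of the ratio over both treatments was 0.0626. Ptger3 was called in the same direction in each of the 30 other settings tried.

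Eln, which encodes elastin, the elastic protein of the arterial wall, had a low transcript, ENSMUST00000201399, at 0.781 ± 0.38 FPKM in WT saline, 0.737 ± 0.65 in WT AngII, 1.54 ± 0.79 in KO saline and 2.59 ± 0.945 in KO AngII (difference 0.77 ± 0.191, adjusted p = 0.0415). Its own bases overlap an exon of the antisense gene Gm30003. Srrm2, a scaffold protein of the splicing machinery, differed by 0.64 ± 0.161 (adjusted p = 0.0454). Sema5a, a semaphorin that guides growing cells, differed by 0.81 ± 0.208 (adjusted p = 0.0483), and Slc43a3, a membrane transporter, by 0.48 ± 0.110 (adjusted p = 0.0298). The calls of Eln, Sema5a, Srrm2 and Slc43a3 were lost in 10 to 19 other settings, with the sign kept.

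Taken alone, each treatment gave fewer calls in the same direction. Under saline 12 retained intron transcripts were lower in KO and 0 higher, where 0.228% of all models were called, 0.217% lower and 0.0117% higher. Under AngII 24 were lower and 1, Slc43a3, was higher, where 0.548% of all models were called, 0.474% lower and 0.0732% higher. The saline and AngII comparisons share no libraries: 1647 of the 2981 were lower in both, 381 higher in both and 953 opposite. Across the 2981 transcripts, which are not independent replicates, Spearman's rho between the 2 differences was 0.31, and it was 0.27 across the 31168 other models. Only Cox5b, Rpp21, Atraid and Spcs1 were called in each, 33.3% of the 12 and 16% of the 25. The same count over all models is not given here, so these shares have no background beside them. Rpp21 and Spcs1 passed the filter through WT libraries alone. Of all 2981, 72.2% were lower in KO under saline and 70.3% under AngII, so a shared sign was common without a call. All 25 called under AngII had the same sign under saline, and 11 of the 12 called under saline were lower under AngII. The exception was Ech1, an enzyme of fatty acid oxidation, which stood at 6.95, 14.1, 4.34, 9.19 and 6.85 FPKM in WT saline and at 2.69, 2.24, 1.40, 2.23 and 2.58 FPKM in KO saline. Under AngII it stood at 2.77, 1.96, 2.47, 2.003 and 1.02 FPKM in WT and at 5.01, 9.30, 2.62, 4.64 and 2.52 FPKM in KO. WT saline libraries lay above all KO saline libraries, with a KO minus WT difference of -1.45 under saline (adjusted p = 0.0486) and 0.85 under AngII (adjusted p = 0.203). The interaction was 2.30 (adjusted p = 0.356). Under limma-voom on recovered reads, neither treatment alone gave a call, and fits of the compared groups alone gave 0 under saline and 3 under AngII.

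Among the calls under AngII, Rack1, a ribosome-bound scaffold protein, stood at 83.9, 110, 56.8, 57.8 and 123 FPKM in WT AngII and at 18.3, 24.6, 22.4, 30.6 and 20.7 FPKM in KO AngII, with no overlap. Under saline its groups overlapped (34.2 to 119 FPKM in WT and 21.8 to 68.0 FPKM in KO). The Rack1 difference was -1.79 under AngII (adjusted p = 0.0219) and -0.54 under saline (adjusted p = 0.767). The interaction was -1.25 (adjusted p = 0.998), so the treatments were not shown to differ. Rack1 ENSMUST00000136703 also has 0 bases of its own.

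AngII against saline gave 0 called retained intron transcripts. In WT, in KO, over both genotypes and in the interaction, limma called 0 of 2981, with 115, 116, 104 and 116 at an unadjusted p under 0.05 and smallest adjusted p of 0.610, 0.405, 0.541 and 0.356. Of all models 0%, 0.00293%, 0% and 0% were called. On the ratio the count was 0 of 2947 in each of these comparisons as well, with 118, 124, 110 and 141 at an unadjusted p under 0.05. limma-voom gave 0 on FPKM in these comparisons, while the settings with no filter and with the compared groups alone gave 2 and 1 for AngII in WT. With 5 libraries per group, a p that misses the threshold does not show that levels were the same.

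Extracellular matrix genes, which code for the scaffold of the arterial wall, had the largest median difference with AngII of the 6 lists, with 0 called. Of 52 listed genes 14 had tested members, 18 in all, and with AngII in KO 14 of the 18 were positive with a median of 0.50 and 0 called, against a median of -0.04 over all models. Bgn, a small proteoglycan of the matrix, had a retained intron transcript, ENSMUST00000141945, at 6.15, 9.16, 8.18, 10.1 and 9.89 FPKM in KO saline and at 17.9, 47.7, 16.7, 20.98 and 19.98 FPKM in KO AngII. These groups did not overlap, but the difference of 1.31 had an adjusted p of 0.405. In WT, Bgn stood at 13.1, 16.6, 11.6, 11.1 and 15.1 FPKM with saline and at 18.7, 10.5, 13.0, 12.7 and 12.7 FPKM with AngII, which overlapped. Postn, a matrix protein of injured tissue, had differences of 1.30 in KO and 0.56 in WT, neither called, on a transcript with 0 bases of its own.

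The most abundant retained intron transcript was Eln ENSMUST00000202570 (chr5:134702838-134725300, - strand), with a mean of 154 FPKM. It held 75.5% ± 3.10 of the FPKM of Eln in WT saline, 73.4% ± 5.72 in WT AngII, 73.2% ± 8.30 in KO saline and 70.0% ± 7.35 in KO AngII. Its level was 110 ± 23.0, 202 ± 73.3, 71.6 ± 26.0 and 231 ± 108 FPKM in that order, with no comparison called. It holds 0 complete coding introns, and only 310 of its 3076 bases lie outside the other Eln transcripts. Among the next by level were Rps16, Aplp2, Rpl7, Uimc1, Tkt, Ghitm, Slc1a5 and a second Tkt transcript. Several of these varied widely within a group: Rpl7 ENSMUST00000125005 ranged from 0.033 to 257 FPKM over the WT libraries alone. Of the 10 most abundant, only Slc1a5 was called. This glutamine transporter stood at 149, 129, 98.8, 122 and 121 FPKM in WT saline and at 162, 130, 139, 124 and 112 FPKM in WT AngII. It stood at 79.6, 119, 95.6, 93.4 and 82.7 FPKM in KO saline and at 90.4, 97.5, 102, 88.0 and 101 FPKM in KO AngII. The Slc1a5 difference was -0.43 ± 0.0934 (adjusted p = 0.0214), with overlap in a few libraries, and its ratio was not called (adjusted p = 0.471).

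In some genes the retained intron transcript was given most of the gene's annotated FPKM. Such shares rest in part on how shared reads were divided, which is not given, so they do not show which RNA was most common. Where the gene summed to 10 FPKM or more, the highest shares were those of Fam221b (99.8%), Uimc1 (97.5%), Slc39a7 (86.7%), Ppm1a (85.4%), Tap2 (85.1%), Fn1 (83.4%), Poglut1 (81.0%) and Gabarap (78.3%). Fn1 encodes fibronectin, and its ENSMUST00000185408 stood at 250, 145, 120, 163 and 105 FPKM in WT AngII and at 70.4, 147, 148, 153 and 133 FPKM in KO AngII. In WT saline Fn1 stood at 91.0, 3.29, 82.9, 71.0 and 95.8 FPKM, so that WT saline replicate 2 alone was near the floor, and it stood at 28.5, 85.9, 62.0, 67.3 and 74.5 FPKM in KO saline. No Fn1 comparison was called. Ppm1a, a protein phosphatase, was level over the groups (16.1 ± 1.6, 17.3 ± 1.4, 16.5 ± 3.3 and 17.1 ± 3.5 FPKM from WT saline to KO AngII). Uimc1 and Fam221b overlap genes on the opposite strand with their own bases, so their shares are uncertain. Fam221b was called lower in KO (difference -0.54, adjusted p = 0.0121).

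The remaining lists held few calls over both treatments. Of 32 tested members of oxidative phosphorylation genes, Cox5b alone was called, with 28 negative and a median of -0.19. Of 21 members of contractile smooth muscle genes and 14 of genes of endosome traffic and AngII receptor signalling, 0 were called, with medians of -0.09 and -0.23. Desmin, the intermediate filament of muscle, had a retained intron transcript at 9.11 to 106 FPKM in WT and 7.04 to 49.1 FPKM in KO, not called (adjusted p = 0.211). Of 6 members of nonsense-mediated decay factor genes 0 were called, with a median of -0.20. Over all tested retained intron transcripts the median was -0.18. Agtr1a, the receptor gene of the study's title, has no retained intron transcript in the annotation.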

How the data were processed

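RNA sequencing of rRNA-depleted total RNA from 20 abdominal aortas, 5 per group, was used. The authors deposited 1 table of values per library, read here as FPKM because, times transcript length, low values came in whole reads (99.5% within 0.1 read). That share covers values under 20 reads, to which the size of 1 read was fitted. Per the submitters' processing notes the build was mm10 and limma was used. The aligner, the counter and how reads shared by transcripts of 1 gene were divided are steps not given in the sources used here. Transcript types, exons and sequences came from GENCODE M21; 169 Ensembl transcripts did not match and 16637 models are unannotated. Unique bases ("own bases") are exon bases covered by no other transcript of the gene. Splice junctions found in only 1 transcript were not examined.

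Models at 1 FPKM or more in at least 5 libraries were fitted in 1 model of 4 group means with limma 3.58.1 (trend and robust; R 4.3.3) on log2(FPKM + 1), and on the log2 ratio to the other transcripts of the gene, for 18476 transcripts of genes with others. P-values are two-sided and Benjamini-Hochberg adjusted over each whole table. Tables and figures used Python 3.11.15, pandas 2.3.3, numpy 2.4.6 and matplotlib 3.10.9. On simulated data (KO against WT under saline) 27% of changes of log2 1 and 74% of log2 2 were recovered over 34149 models, and 8.18% of FPKM calls were false. The median tested retained intron transcript rests on 168 reads in a library, and 1029 rest on under 100; counting error is not modelled in FPKM.

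Nothing in the labels says that libraries were prepared in batches, and each is taken as 1 mouse. Replicate numbers were not treated as pairs. The rule for names took the 10 highest levels, up to 6 called increases and decreases per comparison, the 8 highest shares, known retention genes, 3 members per gene list, and those called in each treatment; a few named by it are not reported here. Members, lists and rules were chosen with earlier results of these data known. Alternatives changed the filter, pseudocount, scaling, model, ratio denominator and libraries.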

Additional observations from a re-analysis of the deposited data

Results flagged for a closer look

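Of 36 groups of 5 libraries examined, 3 held a library far from the others by Dixon's test; chance flags about 1 in 20 groups. KO saline replicate 3 had the highest retained intron share of annotated FPKM of its group, 3.81%, with the other 4 between 2.73% and 2.98%. The same library had the highest Clk1 ENSMUST00000129577 level, 1.90 FPKM, with the others between 0.757 and 1.06 FPKM. Leaving it out raised the retained intron transcripts called over both treatments from 148 to 214. WT AngII replicate 3 had the highest median share of the gene, 7.90%, with the other 4 between 5.06% and 5.60%.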

How the results depend on the processing

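The 143 transcripts that were lower over both treatments stayed negative in each of 29 other settings in which all were tested, and so did the 42 still tested with a filter at 5 FPKM. Having been chosen for a low value in these same libraries, they could hardly change sign, so this tests nothing. The number called over both treatments, 148, became 52 with a filter at 5 FPKM, 89 with limma-voom on recovered reads, 70 without the length and GC trend and 52 without the pair of low-Rab22a WT libraries (the last 2 settings were added after seeing the data). It ranged from 88 to 214 when 1 library was left out, and fell by over 1.5 times without WT saline replicate 1 (98), WT AngII replicate 2 (95), KO saline replicate 5 (88), KO AngII replicate 1 (94) or KO AngII replicate 3 (97). Quantile normalization gave 101 lower and 13 higher and TMM-like factors 107 and 9; these scalings moved the median over all models from -0.07 to 0.02 and 0.00, and that over retained intron transcripts from -0.18 to -0.08 and -0.11. Of the 143, 51 were still called lower without the length and GC trend and 50 without the 2 WT libraries.

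Under saline the 12 calls became 4 with no filter, 2 with a filter at 5 FPKM, 7 with quantile normalization, 0 with the compared groups alone, 0 with voom, 4 without the length and GC trend and 5 without the low-Rab22a libraries, and 3 to 13 with 1 library left out; they fell to 7 or fewer without any 1 of the saline libraries except WT replicate 5 and KO replicate 3, and to 7 without WT AngII replicate 1, 2 or 5. Under AngII the 25 became 11 with a filter at 5 FPKM, 3 with the compared groups alone, 0 with voom, 9 without the trend, 8 without the low-Rab22a libraries and 13 with at least 100 own bases, and 5 to 40 with 1 library left out; the count was 15 or fewer without any 1 of the AngII libraries except WT replicate 3 and KO replicate 4, and 40 without KO saline replicate 3. AngII in WT gave 2 calls with no filter and 1 with its groups alone.

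On the ratio, the 5 calls over both treatments became 87 with no filter, 2 with a filter at 5 FPKM, 19 with a pseudocount of 0.1 and 0 without the low-Rab22a libraries, and 0 to 8 with 1 library left out. Under saline 1 call appeared with a pseudocount of 0.1 (higher in KO), with the groups alone (lower) and without the low-Rab22a libraries (higher). With 1 library left out 0 to 1 appeared, higher in KO. Under AngII 1 call appeared with no filter (higher in KO), a pseudocount of 0.1 (lower) and the groups alone (lower). With 1 library left out 0 to 1 appeared, lower in KO. The other ratio and FPKM comparisons stayed at 0.

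With 1 library left out, KO minus WT in the retained intron share of annotated FPKM ranged from -0.46 to -0.31 percentage points, in the number at 1 FPKM from -492.2 to -366.7 and in the median share from -0.80 to -0.49; AngII minus saline ranged from -0.05 to 0.11, from -41.4 to 99.9 and from -0.08 to 0.29. At 0.1 FPKM the number differed by -773.2.

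With a replicate block 121 were called over both treatments, 6 under saline, 12 under AngII and 2 on the ratio over both treatments. The labels do not say whether equal numbers mark paired mice. Correlations of same-numbered libraries ran from -0.24 to 0.22, with 5 of 30 above 0.1, and 3 of 20 libraries correlated best with their own number. Such correlations cannot exclude that equal numbers share a day or a preparation.

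For named transcripts, 354 of 1415 values lost the call, 8 gained one and 0 changed sign. Depth limits single transcripts: 52 of the 143 had under 100 reads per library on average.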

Other observations

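Sequence features of the 143 transcripts that were lower in KO are given beside those of all 2981 tested and of all 20115. Their 119 complete introns began with GTGAG in 30.3% and with GTAAG in 23.5%, beside 29.5% and 17.95% of the 2050 introns of tested transcripts and 29.5% and 21.1% of the 8016 introns of all. Their median length was 776 bases, beside 1123 bases for those tested and 877 bases for all. A complete coding intron lay in 80 of the 143 (55.9%), beside 45.2% of those tested and 29.4% of all. Of the 143, 25 (17.5%) have no base of their own, beside 14.3% of those tested and 10.8% of all. The level of such transcripts rests on how reads of shared bases were divided. Of the 143, 6 have own bases that overlap a gene on the opposite strand.

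Among the transcripts whose genotypes did not overlap, Fmo2, a flavin monooxygenase that oxidises drugs and other foreign compounds, had a difference of -1.10, with a lowest WT library of 9.27 FPKM and a highest KO library of 8.20 FPKM. Eif4a2, an RNA helicase of translation initiation, had one of -0.87, with 1.65 and 1.55 FPKM. Irf3, a transcription factor of the interferon response, had one of -0.59, with 2.34 and 2.24 FPKM. In Fmo2 the other transcripts of the gene were higher in KO by 0.73, and the ratio, not called, differed by -1.83. Only 64 of the 3594 bases of this Fmo2 transcript are its own.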
